A study of Mus musculus with 4 samples.

Results

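Forkhead transcription factors were followed in KSP-positive and KSP-negative cells sorted from differentiated mouse ES cells. The members are the genes whose symbol on the Affymetrix mouse array consists of Fox, a class letter from a to s and a number, and whose probe sets are assigned to a single gene. There were 37 such genes, measured by 82 probe sets, of 18193 genes with such probe sets on the array. KSP, the kidney specific protein, is a cadherin of renal epithelium that is encoded by Cdh16. The cells came from the ES cell line EB3 of strain 129/Ola, in its CAG-GFP form that expresses GFP throughout, and all of them had been differentiated through embryoid bodies for 18 days with Activin at 10 ng/mL. The 2 KSP-positive samples held cells positive for both KSP and GFP, and the 2 KSP-negative samples held GFP-positive cells without KSP at the surface. No sample of undifferentiated cells was included, and all samples derive from a single ES cell line. The study collected the samples of both groups in 2 independent experiments. The comparison asks in which forkhead factors the purified cells differ from the rest of the culture.

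Forkhead factors share a winged helix domain that binds DNA, and the class letter groups those with the most similar domains. FoxA factors open closed chromatin in the endoderm and the liver. Foxd3 maintains pluripotent cells of the epiblast and later the neural crest, and Foxh1 takes activated Smad proteins to the targets of Nodal and Activin. Foxc1, Foxc2, Foxd1, Foxd2 and Foxf1 act in the mesenchyme that surrounds epithelia, with Foxd1 as the factor that marks the stroma of the developing kidney. FoxO factors answer to insulin and growth factors, Foxm1 drives mitosis, Foxj1 drives motile cilia, and Foxi1 is needed by the intercalated cells of the collecting duct.

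Signals were taken after scaling the arrays to a common 75th percentile of 281, raising signals under 12.3 to this floor and taking log2 values. A gene was tested where the mean of its log2 signals exceeded 5.14, with its brightest probe set. Signals of single genes that are not on the log2 scale are given below after scaling and before the floor. Summed signals of markers were taken after the floor. The sort marker itself did not pass the test: Cdh16 had log2 signals of 5.66 and 5.03 in KSP-positive and 5.30 and 4.71 in KSP-negative cells (replicates 1 and 2 in this order, log2 difference 0.34, 95% confidence interval -0.92 to 1.60, adjusted p = 0.816, limma). The replicates of either group correlated at 0.945 across genes (genes are no independent replicates). For actin, the 3′ probe set divided by the 5′ probe set gave 2.92 and 1.80 on the KSP-positive arrays and 1.79 and 3.55 on the KSP-negative arrays, a ratio that grows as RNA gets shorter.
Of the 37 forkhead genes 26 were tested. Foxa1, Foxa2, Foxd3 and Foxq1 fell in KSP-positive cells, none rose, and the other 22 were not called at an adjusted p of 0.05 (limma, two-sided, over 12849 genes). Over all genes tested 1.65% were lower and 1.84% higher by this rule (3.49% in either direction). Of the 4 called forkhead genes, Foxd3 passed the filter only through the KSP-negative arrays, where it was high. Foxd3 is also counted below among the genes more than 2-fold lower and among those lower without overlap. The shares of all genes are therefore given for scale only, and the forkhead counts were not tested against them. Foxc1 and Foxc2 were the only forkhead genes that lay higher at an unadjusted p under 0.05, and 7 lay lower. Of all 12849 genes tested, 2284 reached such a p in either direction. Without the test, 7 forkhead genes were more than 2-fold lower (7.66% of all genes) and Foxc2 was more than 2-fold higher (7.92% of all genes). The groups did not overlap for 11 genes that were lower (24.6% of all genes) and 2 that were higher (24.4% of all genes, 48.9% in either direction). The median log2 difference was -0.28 over the 26 forkhead genes and -0.03 over all genes tested. The calls depend on 1 array: without KSP-negative replicate 2, limma called 124 genes in place of 448, and Foxq1 alone among the forkhead genes (adjusted p = 0.0271).

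**Figure D1:**
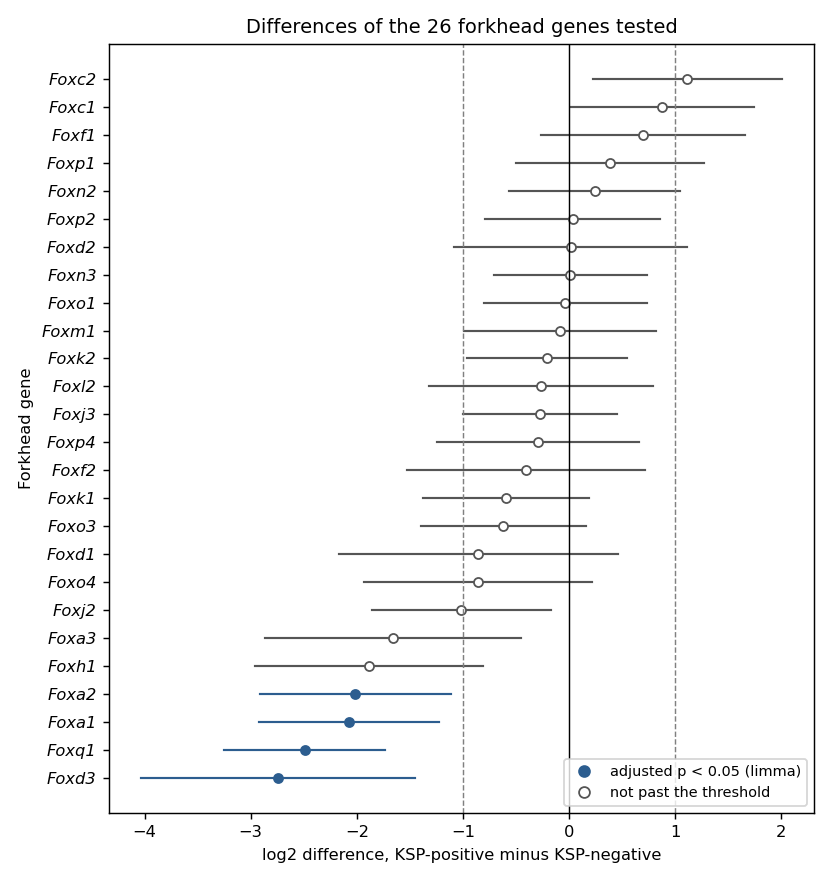
KSP-positive minus KSP-negative log2 signal on the horizontal axis (2 arrays a group) for the 26 forkhead genes tested (vertical axis); lines are 95% confidence intervals from limma, filled blue points have an adjusted p under 0.05, with dashed lines at 2-fold. Foxd3, Foxq1, Foxa1 and Foxa2 lie at -2.74 to -2.01, and Foxc2 and Foxc1 lie at 1.11 and 0.88.

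Of the 3 FoxA genes, which serve the endoderm and the liver, Foxa1 and Foxa2 fell in KSP-positive cells. Foxa1 had scaled signals of 200 and 118 on KSP-positive arrays 1 and 2, against 643 and 653 on KSP-negative arrays 1 and 2, the order kept throughout. Both KSP-positive arrays thus lay far under both KSP-negative arrays, which were nearly alike. The log2 difference of Foxa1 was -2.08 (standard error 0.39, 4.21-fold lower, adjusted p = 0.0170, limma). Foxa2, which also patterns the node and the floor plate, had signals of 84.4 and 61.1 in KSP-positive and 248 and 339 in KSP-negative cells. Its groups did not overlap, and the log2 difference was -2.01 (standard error 0.41, 4.04-fold lower, adjusted p = 0.0254, limma). Foxa3, the class member of the liver and gut, had signals of 41.8 and 30.5 against 175 and 72.8. It was lower in each KSP-positive array as well, but the KSP-negative arrays differed from each other (SD of the log2 signal 0.90, n = 2) and the difference of -1.66 did not pass the test (standard error 0.55, adjusted p = 0.135, limma). Without KSP-negative replicate 2 the adjusted p was 0.0872 for Foxa1 and 0.194 for Foxa2.
The endoderm genes known to act with FoxA went the same way where they were called. Of 17 genes tested, Spink1, Hnf4a, Rbp4 and Ttr fell (1.65% of all genes), none rose and the other 13 missed the threshold. The median log2 difference was -1.45, against -0.03 over all genes. Hnf4a, a nuclear receptor of liver and gut endoderm, had a log2 difference of -2.88 (adjusted p = 0.0188, limma). Spink1, a trypsin inhibitor, had a log2 difference of -2.50 (adjusted p = 0.0160, limma). Ttr and Rbp4, plasma carriers of thyroid hormone and retinol, had differences of -1.60 and -1.92 (adjusted p = 0.0450 and 0.0408, limma). Gata6, which also serves the mesoderm, lay on the other side with a log2 difference of 1.13 (adjusted p = 0.161, limma). Hnf4a and Rbp4 did not pass without KSP-negative replicate 1 (adjusted p = 0.0758 and 0.0944) or replicate 2 (adjusted p = 0.0538 and 0.0823), and Ttr did not pass without KSP-positive replicate 2 (adjusted p = 0.188), KSP-negative replicate 1 (adjusted p = 0.0835) or KSP-negative replicate 2 (adjusted p = 0.152). Rbp4 did not pass without KSP-positive replicate 2 (adjusted p = 0.142) or after quantile normalization (adjusted p = 0.0613) either. In the same arrays 4 of 8 markers of epithelia fell and none rose (1.65% and 1.84% of all genes). Their summed signal was 8110 and 10253 in KSP-positive and 21142 and 27702 in KSP-negative cells, and no marker was at the floor on all arrays. Their part in the result was not tested. In bulk samples such as these, fewer cells of a type and less RNA per cell cannot be told apart.

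Foxq1, a factor of the hair follicle and of the stomach lining, had the smallest p of the forkhead genes. Its scaled signals were 394 and 359 in KSP-positive and 1823 and 2455 in KSP-negative cells. The KSP-positive replicates lay close together and well under both KSP-negative replicates, with a log2 difference of -2.49 (standard error 0.34, 5.63-fold lower, adjusted p = 0.00535, limma). This value rests on a probe set of the x type, whose probes can also bind other transcripts. The second probe set of Foxq1 had signals of 142 and 87.5 against 310 and 262. It was lower in the same arrays by a smaller amount, with a log2 difference of -1.35 that did not pass when every kept probe set was tested (adjusted p = 0.154, limma). The other genes of epithelia, placodes and ionocytes, Foxe3, Foxi1 and Foxn1, were too dim to be tested. Foxi1 had signals of 3.58 and 19.4 in KSP-positive and 42.0 and 15.2 in KSP-negative cells, so the groups overlapped.

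**Figure D2:**
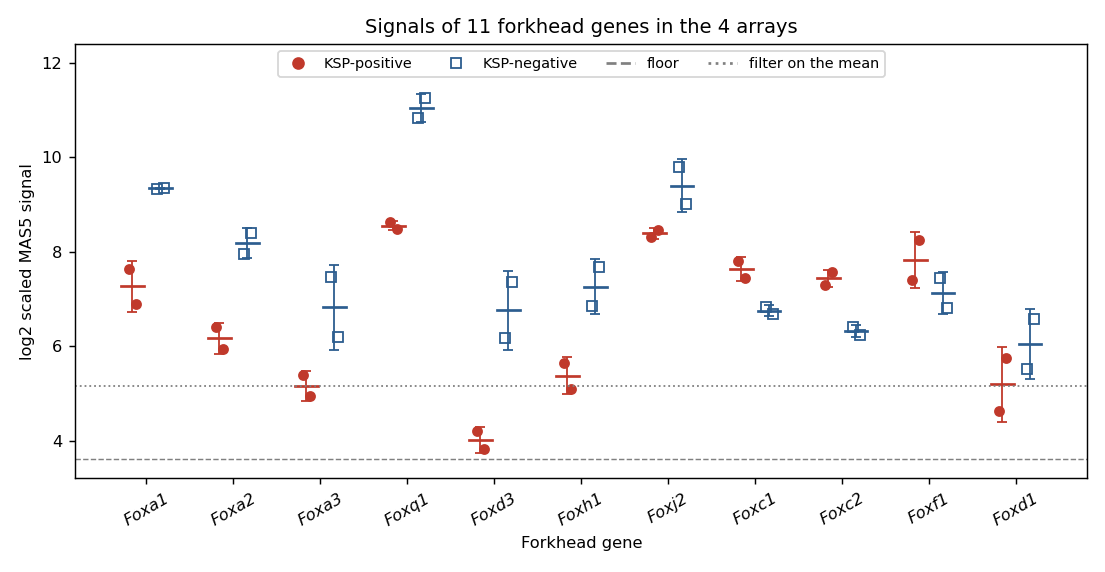
Log2 scaled signal (vertical axis) of 11 forkhead genes (horizontal axis) in the 4 arrays, with filled red circles for KSP-positive and open blue squares for KSP-negative replicates; bars are means, whiskers the SD (n = 2), the dashed line the floor of 12.3 and the dotted line the filter on the mean. The FoxA genes, Foxq1, Foxd3, Foxh1 and Foxj2 lie lower in KSP-positive cells without overlap, Foxc1 and Foxc2 lie higher, and the values of Foxf1 and Foxd1 overlap; levels of different genes are not compared.

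Of Foxd3 and Foxh1, factors of pluripotent cells and of the response to Nodal, Foxd3 fell in KSP-positive cells. Foxd3 had scaled signals of 18.5 and 14.2 in the KSP-positive replicates, near the floor, and of 71.6 and 163 in the KSP-negative replicates. The groups were apart, and the KSP-negative replicates differed from each other (SD of the log2 signal 0.84, n = 2). The log2 difference of Foxd3 was -2.74 (standard error 0.58, 6.68-fold lower, adjusted p = 0.0313, limma). Foxd3 was the only forkhead gene tested whose KSP-positive mean lay under the filter, so it entered the test through the KSP-negative arrays alone. Its adjusted p was 0.229 without KSP-negative replicate 2, 0.116 with a floor raised to the 40th percentile and 0.0560 when every kept probe set was tested. With the raised floor its difference was -1.54.
Foxh1 had signals of 50.2 and 34.3 in KSP-positive and 116 and 204 in KSP-negative cells. These values did not overlap, and the log2 difference of -1.89 (standard error 0.48, 3.70-fold lower) missed the threshold (adjusted p = 0.0629, limma). A second probe set of Foxh1, dimmer and also without overlap, had a difference of -2.24 (adjusted p = 0.0961 among all kept probe sets, limma). Both probe sets thus ranked the arrays in the same order. Foxh1 passed without KSP-positive replicate 1 (adjusted p = 0.0291), in the deposited values without scaling (adjusted p = 0.0134) and in a fit blocked on replicate number (adjusted p = 0.0296).
Most of the tested genes of Nodal signalling and targets of Foxh1 fell, while Foxh1 itself missed the threshold. Of 11 tested, 7 fell (Nodal, Eomes, Tdgf1, Mixl1, Lefty2, Lhx1 and Fst), none rose and the other 4 missed the threshold. Lhx1 had also been listed as a marker of renal epithelium. Over all genes tested 1.65% were lower. The median log2 difference was -2.46, against -0.03 over all genes. Nodal, the ligand, had log2 signals of 7.12 and 7.61 in KSP-positive and 9.82 and 11.18 in KSP-negative cells (log2 difference -3.13, adjusted p = 0.00725, limma). Eomes, a T-box factor of the primitive streak, had a difference of -3.06 (adjusted p = 0.00736), Tdgf1, the co-receptor of Nodal, one of -3.68 (adjusted p = 0.0147), and Mixl1, a homeobox target of Nodal, one of -3.59 (adjusted p = 0.0155, limma). The KSP-positive mean of Mixl1 lay under the filter, so it was tested through its KSP-negative arrays alone. Smad7, an inhibitor of the pathway, was the only one of the 11 genes that lay higher, with a log2 difference of 1.03 and overlapping groups (adjusted p = 0.393, limma). Without KSP-negative replicate 2, Nodal and Eomes passed (adjusted p = 0.0378 and 0.0464) and Tdgf1, Mixl1, Lefty2, Lhx1 and Fst did not (adjusted p = 0.0637 to 0.258), and without KSP-positive replicate 2 Fst did not (adjusted p = 0.103). Fst also missed the threshold in the unscaled values (adjusted p = 0.0562) and after quantile normalization (adjusted p = 0.0523).
In the same arrays all 10 markers of pluripotent cells that were tested fell (1.65% of all genes were lower). Their summed signal was 1401 and 1732 in KSP-positive and 11958 and 23997 in KSP-negative cells. Nanog and Fgf4 were at the floor on 1 KSP-positive array each, and Tdgf1 is among the markers. The KSP-positive means of Nanog, Fgf4 and Utf1 lay under the filter, so these were tested through the KSP-negative arrays alone. The part of the 10 markers in the result was not tested.

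Forkhead genes of the mesenchyme went both ways by small amounts, and none passed the test. Foxc2, a factor of mesoderm, podocytes and lymphatic vessels, had log2 signals of 7.30 and 7.56 in KSP-positive and 6.41 and 6.23 in KSP-negative cells. Foxc1, its close relative in the mesenchyme of kidney and eye, had log2 signals of 7.81 and 7.45 against 6.83 and 6.68. In both genes each KSP-positive array lay above each KSP-negative array. The log2 differences were 1.11 for Foxc2 (standard error 0.41, 2.17-fold, adjusted p = 0.174, limma) and 0.88 for Foxc1 (standard error 0.39, 1.84-fold, adjusted p = 0.273, limma). Over the 17 alternatives the difference ran from 0.98 to 1.25 for Foxc2 and from 0.70 to 1.06 for Foxc1. A second, dimmer probe set of Foxc1 lay under the filter with a log2 difference of 0.09.
Foxf1, a target of Hedgehog signals in visceral mesoderm, had scaled signals of 169 and 303 in KSP-positive and 174 and 112 in KSP-negative cells. The groups overlapped, and the log2 difference of 0.70 did not pass the test (95% confidence interval -0.27 to 1.66, adjusted p = 0.446, limma). Foxd1, the marker of the renal stroma, had signals of 24.8 and 53.9 against 45.9 and 95.3. These overlapped too, and the difference was -0.86 with a 95% confidence interval from -2.17 to 0.46 (adjusted p = 0.501, limma). Foxf2 and Foxd2 had log2 differences of -0.40 and 0.01 (adjusted p = 0.741 and 0.994, limma). Foxs1 was just too dim to be tested, and Foxl1, a factor of the gut mesenchyme, was at the floor on all arrays. Foxs1, a gene of pericytes, had signals of 57.5 and 39.2 in KSP-positive and 38.2 and 18.0 in KSP-negative cells, and its groups did not overlap.
The genes that surround these factors in the mesenchyme moved upward where they were called. Of 15 genes of the renal stroma tested, Pdgfrb, Tcf21 and Fat4 rose, none fell and the other 12 missed the threshold (median log2 difference 0.65). Over all genes tested 1.84% were higher, and the median was -0.03. Pdgfrb, a PDGF receptor, had a log2 difference of 1.81 (adjusted p = 0.0147), Tcf21, a stromal and podocyte factor, one of 1.65 (adjusted p = 0.0331), and Fat4, a giant cadherin of the stroma, one of 1.43 (adjusted p = 0.0386, limma). Sall1, a zinc finger factor of kidney development in the same list, lay lower without overlap, at -1.85 (adjusted p = 0.0629, limma), a larger difference than that of any of the 3 genes that rose. Of 15 genes of the Hedgehog pathway and the FoxF mesenchyme, Hhip rose (1.84% of all genes were higher) and none fell. The other 14 missed the threshold (median of the list 0.63). Hhip binds Hedgehog ligands and is induced by them. Hhip had log2 signals of 7.92 and 7.55 in KSP-positive and 5.96 and 5.46 in KSP-negative cells (log2 difference 2.03, adjusted p = 0.0309, limma). The ligand Shh lay lower, at -1.45 (adjusted p = 0.0890, limma). Without KSP-negative replicate 2 none of these 4 genes passed (adjusted p = 0.0637 to 0.170). Hhip also failed without KSP-positive replicate 1 (adjusted p = 0.0924), Tcf21 without KSP-positive replicate 2 (adjusted p = 0.0911) and with the values as deposited (adjusted p = 0.112), and Fat4 without any array in turn (adjusted p = 0.0529 to 0.186) and with the values as deposited (adjusted p = 0.0615). Of 10 markers of mesenchyme 6 rose (1.84% of all genes) and none fell. Their summed signal was 72297 and 53627 in KSP-positive and 31709 and 17117 in KSP-negative cells, with none at the floor. Pdgfrb is among these markers, and their part in the values of Foxc1 and Foxc2 was not tested.

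**Figure D3:**
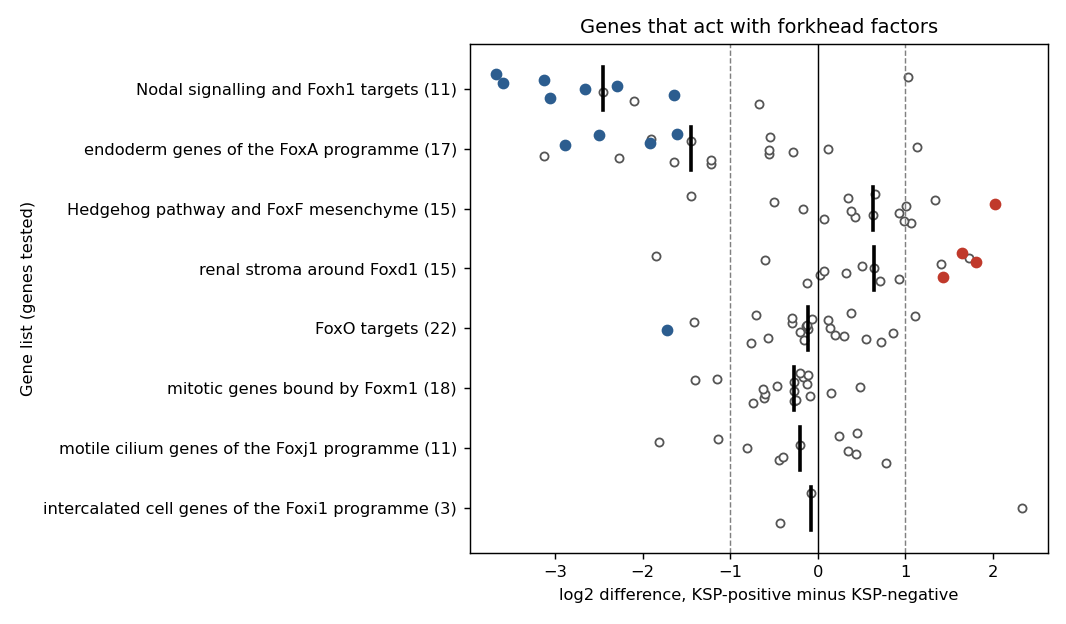
KSP-positive minus KSP-negative log2 signal on the horizontal axis (2 arrays a group) for each gene tested in 8 lists of genes that act with forkhead factors (vertical axis, number tested in parentheses); filled blue (lower) and red (higher) points passed at an adjusted p of 0.05 in limma and open ones did not, medians are black bars, with dashed lines at 2-fold. The Nodal list has its median at -2.46 and the renal stroma list at 0.65.

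The neighbouring genes of the forkhead clusters were set side by side, since several members lie next to each other in the RefSeq annotation of GRCm38.p6. On mouse chromosome 13, Foxq1, Foxf2 and Foxc1 follow each other with no other coding gene between them. Their log2 differences were -2.49, -0.40 and 0.88, so this cluster held both a gene that fell and a gene on the other side of 0. On chromosome 8, Foxf1, Foxc2 and Foxl1 lie together with 1 coding gene between Foxf1 and Foxc2. Foxf1 and Foxc2 had differences of 0.70 and 1.11, and Foxl1 stayed at the floor. Foxd2 and Foxe3, neighbours on chromosome 4, had a difference of 0.01 and signals at the floor.
The promoter windows, from 250 bases before to 50 bases after the start site in RefSeq, were read for the called FoxA genes and Foxd3, and for Foxc1, which lay higher without passing the test. The first 3 are shown as called genes, and Foxc1 for comparison, since it was not called. Windows were at hand for 24 of the 37 genes, 29 windows in all, and not for Foxb1, Foxc2, Foxf1, Foxh1, Foxj1, Foxk1, Foxl1, Foxm1, Foxn2, Foxo4, Foxp2, Foxq1 and Foxs1. The windows below are from GRCm38.p6 and run 5′ to 3′ on the strand of the gene, at chr12:57546062-57546361 (minus strand) for Foxa1, chr2:148046920-148047219 (minus strand, the first of 3 start sites) for Foxa2, chr4:99656049-99656348 (plus strand) for Foxd3 and chr13:31806396-31806695 (plus strand) for Foxc1. Capitals mark matches to the forkhead core TGTTTAC or the Foxh1 site AATCCACA on either strand.
Foxa1: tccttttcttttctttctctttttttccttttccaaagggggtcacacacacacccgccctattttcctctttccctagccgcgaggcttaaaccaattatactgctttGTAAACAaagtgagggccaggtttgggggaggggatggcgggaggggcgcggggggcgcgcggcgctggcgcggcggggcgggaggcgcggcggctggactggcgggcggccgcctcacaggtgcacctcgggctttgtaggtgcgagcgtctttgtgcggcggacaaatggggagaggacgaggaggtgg
Foxa2: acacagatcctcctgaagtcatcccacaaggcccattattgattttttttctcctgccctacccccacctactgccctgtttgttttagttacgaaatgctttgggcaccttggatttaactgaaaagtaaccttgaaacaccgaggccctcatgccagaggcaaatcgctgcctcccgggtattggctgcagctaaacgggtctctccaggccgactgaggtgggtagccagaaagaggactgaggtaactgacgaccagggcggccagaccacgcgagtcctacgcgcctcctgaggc
Foxd3: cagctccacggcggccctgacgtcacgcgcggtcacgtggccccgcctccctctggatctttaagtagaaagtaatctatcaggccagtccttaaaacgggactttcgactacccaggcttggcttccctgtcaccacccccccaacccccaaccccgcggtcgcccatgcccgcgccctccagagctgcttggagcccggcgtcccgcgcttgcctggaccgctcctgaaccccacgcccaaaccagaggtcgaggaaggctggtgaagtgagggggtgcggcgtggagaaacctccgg
Foxc1: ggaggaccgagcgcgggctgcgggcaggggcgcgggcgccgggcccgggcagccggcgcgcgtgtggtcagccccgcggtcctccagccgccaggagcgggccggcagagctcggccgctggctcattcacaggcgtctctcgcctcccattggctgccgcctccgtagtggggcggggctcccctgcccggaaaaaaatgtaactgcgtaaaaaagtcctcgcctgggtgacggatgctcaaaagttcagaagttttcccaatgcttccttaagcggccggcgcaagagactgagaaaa
The window of Foxa1 held the core in its reverse form, starting 141 bases before the start site. It was the only one of the 29 forkhead windows with the core (3.45%), while 3.65% of all 32851 windows held it. The Foxh1 site was in 0 of the 29 and in 0.855% of all windows, and both motifs were searched on both strands without mismatch and do not overlap. The absence of these letters says nothing on binding outside the windows. What the windows shared more widely was their base composition: 17 of the 29 (58.6%) had a GC content of at least 55% with a ratio of observed to expected CpG of at least 0.6, against 30.3% of all windows. Of the windows shown, those of Foxa1 (62.3% GC), Foxd3 (65.7%) and Foxc1 (67.3%) met this rule. The window shown for Foxa2 did not, with 54.3% GC and a CpG ratio of 0.548. For Foxa2 this depended on the start site: of its 3 windows, the middle one met the rule and the last did not.

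None of the FoxJ, FoxK, FoxN, FoxO and FoxP genes that were tested passed. Among them Foxj2, a broadly expressed activator, had the largest difference, with signals of 317 and 353 in KSP-positive and 893 and 512 in KSP-negative cells. The groups were apart, and the log2 difference was -1.01 (standard error 0.38, 2.02-fold lower, adjusted p = 0.192, limma). The other broadly expressed genes were Foxj3, Foxk1, Foxk2, Foxn2 and Foxn3, with log2 differences from -0.60 for Foxk1 to 0.24 for Foxn2. Foxn3, which acts in the DNA damage checkpoint, had signals of 1266 and 1400 against 1364 and 1282. It was the steadiest of these genes across the arrays, with a log2 difference of 0.01 and a 95% confidence interval from -0.71 to 0.73. Foxk1, which with Foxk2 regulates glycolysis and autophagy, was lower in both KSP-positive arrays, with signals of 747 and 977 against 1084 and 1539 (adjusted p = 0.420, limma). A dimmer kept probe set of Foxk1 had a log2 difference of 0.27 with overlapping groups.
The FoxO genes had log2 differences of -0.04 for Foxo1, -0.62 for Foxo3 and -0.86 for Foxo4. Foxo3, with signals of 934 and 653 in KSP-positive and 1313 and 1100 in KSP-negative cells, showed no overlap, and its difference did not pass the test (95% confidence interval -1.40 to 0.15, adjusted p = 0.395, limma). Foxo4 had signals of 206 and 388 against 326 and 807, which overlap. Of 22 FoxO targets tested Gadd45a, a gene of the stress response, fell (1.65% of all genes were lower) and none rose. The other 21 missed the threshold (median log2 difference of the list -0.12, of all genes -0.03). Gadd45a had a log2 difference of -1.72 (adjusted p = 0.0472, limma), and it passed only without KSP-positive replicate 2 among the fits that left out an array, and not after quantile normalization (adjusted p = 0.0632). Trim63 and Fbxo32, ubiquitin ligases of muscle atrophy that FoxO factors induce, lay on the other side, at 1.11 and 0.85 (adjusted p = 0.141 and 0.267, limma).
The FoxP genes of lung, heart and brain lay around 0, with log2 differences of 0.38 for Foxp1, 0.03 for Foxp2 and -0.29 for Foxp4. Foxp1 had signals of 709 and 868 in KSP-positive and 427 and 847 in KSP-negative cells, so that only KSP-negative replicate 1 lay apart. Foxp3, the factor of regulatory T cells, was too dim to be tested, with signals of 18.8 and 9.01 against 18.1 and 23.0. The 10 macrophage markers that were tested all rose in the same arrays (1.84% of all genes were higher). The summed signal of 12 markers was 21217 and 9677 in KSP-positive and 1521 and 1430 in KSP-negative cells. C1qa was at the floor on both KSP-negative arrays, and Fcgr1 and C1qc on 1 each. The KSP-negative means of C1qa, Fcgr1 and C1qc lay under the filter, so these were tested through the KSP-positive arrays alone. Foxm1 had signals of 185 and 152 against 231 and 137. Its groups overlapped, with a log2 difference of -0.09 and a 95% confidence interval from -0.99 to 0.82. Of 18 mitotic genes of the Foxm1 programme 0 passed in limma, and 2 had an unadjusted p under 0.05 (2284 of all 12849 genes tested). These were Nek2 and Plk1, whose log2 differences were -1.40 and -1.15 (adjusted p = 0.0719 and 0.155, limma). Foxl2, the factor of the ovary, had a difference of -0.26 with overlapping groups.

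Several probe sets allowed a second reading of 13 of the tested genes from the same RNA, which is not a replicate. In none of them did kept probe sets lie beyond 2-fold in both directions. The kept probe sets of Foxk1, Foxn2, Foxn3, Foxo1, Foxp1 and Foxp4 did differ in sign. The 8 kept probe sets of Foxp1 ran from -0.16 to 0.77 and the 4 of Foxp2 from 0.03 to 0.61, so neither gene reached 2-fold on any of them. Foxk2 and Foxo3 had a probe set beyond 2-fold beside a brighter one that was not. In Foxk2 the probe set beyond 2-fold had signals of 115 and 185 in KSP-positive and 319 and 472 in KSP-negative cells, a log2 difference of -1.41 (adjusted p = 0.144 among all kept probe sets, limma), whereas the brightest had -0.21. In Foxo3 these were -1.31 (adjusted p = 0.191 among all kept probe sets, limma) and -0.62.

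**Figure D4:**
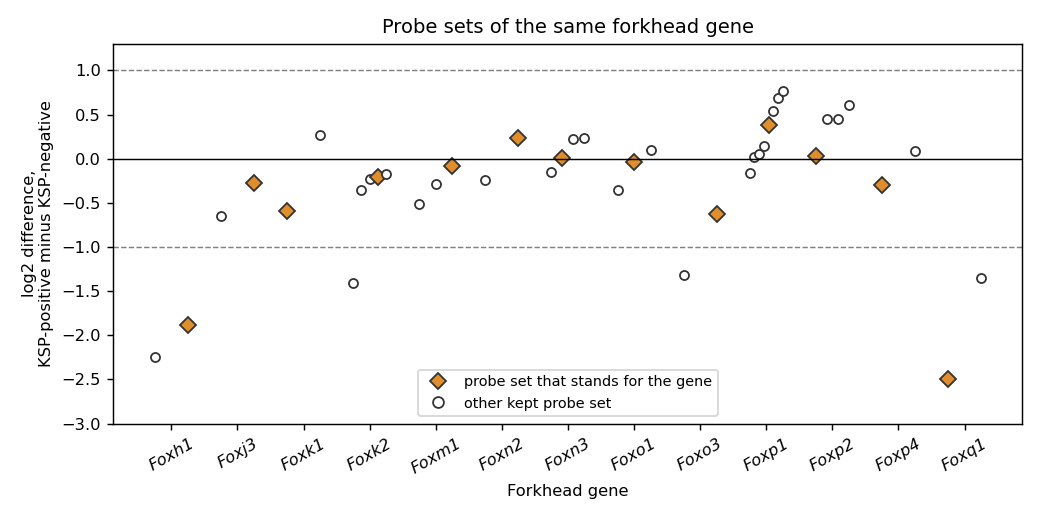
KSP-positive minus KSP-negative log2 signal (vertical axis, n = 2 arrays each) of every kept probe set of the 13 forkhead genes with several (horizontal axis); orange diamonds are the brightest probe sets, which stand for the genes, open circles are the others, with dashed lines at 2-fold. Both probe sets of Foxh1 and of Foxq1 lie beyond 2-fold lower, while those of Foxk2 and Foxo3 lie on both sides of that line.

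The 11 genes that were not tested had means under the filter. They were Foxb1, Foxb2, Foxd4, Foxe3, Foxi1, Foxj1, Foxl1, Foxn1, Foxn4, Foxp3 and Foxs1, and Foxe3 and Foxl1 were at the floor on all arrays. Foxn4, a factor of retinal and spinal progenitors, was the only one of them that differed by more than 2-fold. Its signals were 14.8 and 8.75 in KSP-positive and 30.5 and 79.3 in KSP-negative cells, with a KSP-positive array at the floor, and the groups did not overlap. With dim genes included in the fit, Foxn4 had a log2 difference of -1.87, which depends on the floor (unadjusted p = 0.0490, adjusted p = 0.398, limma). Foxj1, the master factor of motile cilia, had signals of 11.9 and 13.7 against 13.7 and 21.0, all near the floor. Of 11 motile cilium genes of its programme that were tested 0 passed in limma (median log2 difference -0.20). At an unadjusted p under 0.05 there was 1, against 2284 of all 12849 genes tested. Of the intercalated cell genes of the Foxi1 programme only 3 of 11 were bright enough, and 0 passed in limma (1 at an unadjusted p under 0.05). That gene, the proton pump subunit Atp6v0d2, had a log2 difference of 2.33 (adjusted p = 0.0580, limma). It was tested through the KSP-positive arrays alone, and the value depends on the floor, at which 1 KSP-negative array lay.

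Leaving out each array in turn kept the sign of every difference of Foxq1, the FoxA genes, Foxd3, Foxh1, Foxc1 and Foxc2. The difference of Foxq1 ran from -2.71 to -2.28 in these fits and it passed in all 4 of them. Foxa1, Foxa2 and Foxd3 passed in 3 of the 4. Foxa3 had its smallest difference, -1.03, without KSP-negative replicate 1, and its largest, -2.29, without KSP-negative replicate 2. Foxc1 and Foxc2 passed in none of the 4.

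**Figure D5:**
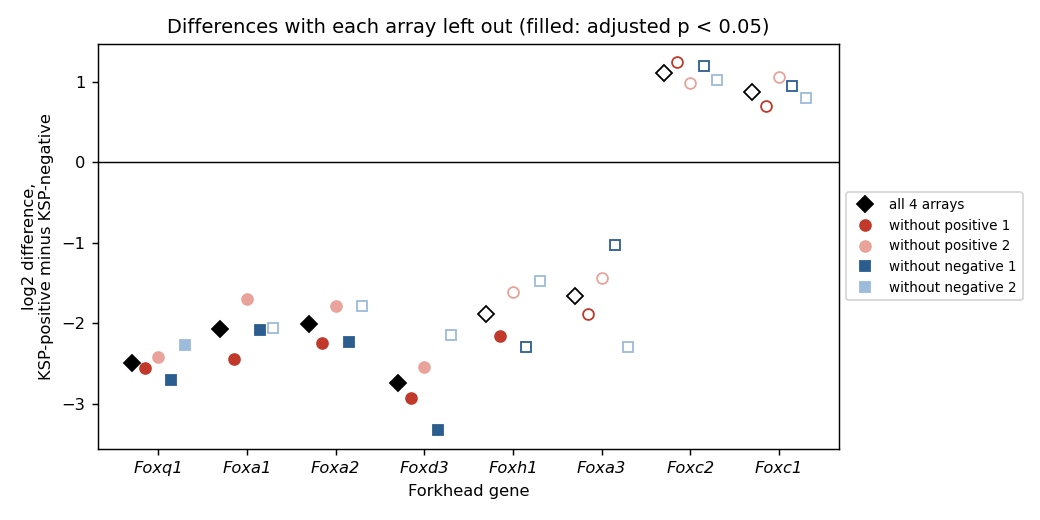
KSP-positive minus KSP-negative log2 signal (vertical axis) of 8 forkhead genes (horizontal axis) with all 4 arrays (diamonds) and with each array left out (circles for KSP-positive, squares for KSP-negative arrays); filled symbols have an adjusted p under 0.05 from limma. Without KSP-negative replicate 2 only Foxq1 keeps a filled symbol, and every gene stays on its side of 0.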

How the data were processed

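Total RNA of 2 KSP-positive and 2 KSP-negative samples had been purified, and biotin-labelled material made from it had been hybridized to Affymetrix mouse arrays. What the authors deposited is 1 linear intensity for each probe set and array, which the submitters' processing notes credit to MAS5. The study standardized its data in GeneSpring with settings that are not given in the sources used here, which was not repeated.

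Each array was scaled to the mean 75th percentile (factors 1.24 and 0.874 for the KSP-positive and 0.905 and 1.06 for the KSP-negative replicates). The 20th percentile of all values served as a floor, and signals were put on a log2 scale. Next to 64 controls the array holds 45037 probe sets, of which 34945 have 1 gene symbol in the annotation, 932 several and 9160 none, and no symbol changed against RefSeq, where 204 were not found. The 2 probe sets shared by a forkhead gene and other genes were left out. Probe sets with a mean above the 40th percentile were kept, and the brightest stood for its gene.

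The comparison used limma 3.58.1 under R 4.3.3 (empirical Bayes with an intensity trend), and p was adjusted by Benjamini and Hochberg over all genes tested. The procedure was tested on simulated data. Their noise was drawn from the spread that limma fitted to these arrays, so the simulation cannot show how well that model holds for them. The number of arrays limits the precision, since an exact permutation of 2 against 2 arrays cannot go under p = 0.333. Gene lists were described by counts and medians, without a set test. Every forkhead gene was accounted for, and values in each array were given for those past the threshold, those over 2-fold without overlap, and others of their class, with further members shown for their role. Of each list all called genes were named if at most 4, otherwise the 4 with the smallest p in full, and Gata6, Smad7, Sall1, Shh, Trim63, Fbxo32, Nek2, Plk1 and Atp6v0d2 were named after their values were seen. The members and lists were chosen with earlier results of these data known. Figures were drawn with matplotlib 3.10.9.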

Additional observations from a re-analysis of the deposited data

How the results depend on the processing

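With 2 arrays a group, differences near 2-fold could not be settled. The 4 forkhead genes called lower became 0 when dim probe sets were let in (limma then called 0 of 18193 genes, with 2280 at an unadjusted p under 0.05, 8 of them forkhead genes, and 1050 genes without any spread) and 0 with the methods' t-test after Benjamini-Hochberg adjustment. With the methods' t-test unadjusted, the same 4 were lower and 2, Foxc1 and Foxc2, were higher. The count lower was 6 with the values as deposited, which added Foxa3 and Foxh1 and shifted the median of all genes to -0.12. The forkhead genes over 2-fold lower numbered 4 with a filter at the 60th percentile, where 18 forkhead genes were tested. With an array left out, 1 to 5 were called lower, 0 higher, 6 to 9 were over 2-fold lower and 1 to 2 over 2-fold higher.

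Over all companion lists 4 genes were called higher and 12 lower. These counts were 0 and 0 with dim probe sets let in, 8 and 23 in the fit with a replicate block, and the deposited values gave 19 lower. With an array left out, 0 to 7 were higher and 4 to 18 lower. The study collected its KSP-positive and KSP-negative samples in 2 independent experiments, but no source used here says that equal replicate numbers mark the same experiment. The deviations of same-numbered arrays had a correlation of 0.17 across genes, and with 2 numbers this does not settle whether arrays of the same number are paired. In the fit with this block, limma called 1131 of all genes in place of 448 and 5 forkhead genes lower, Foxh1 (adjusted p = 0.0296) besides the other 4. The causes were not tested, and every other alternative kept the forkhead counts within 1.5 times.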
